A study of Mus musculus with 9 samples.

Results

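Coagulation and plasminogen activation in RAW264.7 cells were described through 9 genes, namely Procr, Thbd, F3, F7, F10, Plau, Plaur, Serpinb2 and Thbs1. They were taken by symbol in GENCODE M21 (GRCm38), and all 9 were found among the 28137 Ensembl gene identifiers of the deposited values. The genes were picked with the values of all 3 groups already known. Their differences between groups are therefore a description and carry no p-value.

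RAW264.7 is a mouse monocyte-macrophage leukemia line, and every library comes from this single line. RNA-seq was available for 3 groups of 3 libraries, which the labels call NC siRNA (the control siRNA), SFRP2 siRNA and RAB6A siRNA. SFRP2 is a secreted protein that modulates wnt signaling, and RAB6A is a small GTPase of the Golgi. According to the labels, the cells of all 9 libraries were grown in DMEM with serum, received 60 nM siRNA with a Lipofectamine reagent for 6 h and rested in complete medium for 12 h. LPS (lipopolysaccharide, 100 ng/ml) was then given to all of them for 24 h, so no unstimulated cells were measured. The study's methods name a lower siRNA dose, another Lipofectamine reagent, another medium, a longer rest and IFN-γ beside LPS, and which of these held for the libraries cannot be told apart here. The sequence of the RAB6A siRNA is not given in the sources used here, and neither is whether the 3 SFRP2 libraries received different siRNAs. The labels do not say whether the libraries of a group came from separate cultures, and the study's methods speak of independent experiments only in general. P-values then measure only the spread between these libraries, which may be technical.

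The coagulation cascade is started by tissue factor, the product of F3, a membrane protein that binds factor VII and lets it activate factor X. Thrombomodulin (Thbd) and the endothelial protein C receptor (EPCR, Procr) restrain the cascade by promoting the activation of protein C. Plasminogen is cleaved to plasmin, the protease that dissolves fibrin, by urokinase (uPA, Plau) bound to its receptor uPAR (Plaur), and plasminogen activator inhibitor 2 (PAI-2, Serpinb2) is an inhibitor of urokinase. Thrombospondin 1 (Thbs1) is a secreted matrix glycoprotein of platelets and macrophages. Monocytes and macrophages are known as a source of tissue factor, uPA, uPAR and PAI-2 at sites of inflammation.

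Values are FPKM, that is, fragments scaled to exon length and library size, so levels can be compared between genes per length. The number of reads behind each value was recovered from the steps between low FPKM values. These steps also give the read total that scales FPKM in each library. It was 41608378 to 47149258 in the NC group, 34743304 to 40562562 in the SFRP2 group and 32758729 to 37833883 in the RAB6A group. The targeted gene Sfrp2 had 2 to 4 reads in each of the 9 libraries and was not lower in the SFRP2 group, so it gives no check of their label. Rab6a averaged 25.7 ± 1.48 FPKM in NC against 20.7 ± 0.445 in the RAB6A group (SD, n = 3 each), and it fell by 0.31 on the log2 scale (standard error 0.06, adjusted p = 0.0024 from limma). Over all genes tested, 36.5% were called lower and the lower quartile of the log2 fold changes was -0.58. A fall of this size is therefore a weak check of the RAB6A label. All 8 macrophage markers examined were above an FPKM of 0.5, and 3 of them fell in the RAB6A group, Lyz2 by 2.03, Csf1r by 1.44 and Spi1 by 1.05 on the log2 scale (adjusted p = 1.9e-06, 7.8e-06 and 2.0e-05 from limma). Ptprc rose by 0.17 (adjusted p = 0.0285 from limma), a call lost in 7 of 17 alternatives, among them those without any single NC library or without the first or the third RAB6A library. Adgre1, Cd14, Cd68 and Itgam were not called, with log2 fold changes between -0.14 and 0.21.

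Promoter sequences are shown for Procr, F3, Plaur and Serpinb2, the 4 genes with a RefSeq entry and enough expression to enter the fit whose RAB6A and NC libraries did not overlap. The promoter table, on GRCm38.p6, held 6 of the 9 genes, and Thbd, Plau and Thbs1 had no entry. The bases end just before the transcription start, and capitals mark matches to the motifs that were searched. The Procr sequence (chr2:155750967-155751116, + strand) is 150 bases long, since the start in GENCODE lies upstream of that in RefSeq. The F3 sequence is chr3:121723287-121723536, that of Plaur is chr7:24462233-24462482 and that of Serpinb2 is chr1:107511173-107511422, each with 250 bases on the + strand.
Procr: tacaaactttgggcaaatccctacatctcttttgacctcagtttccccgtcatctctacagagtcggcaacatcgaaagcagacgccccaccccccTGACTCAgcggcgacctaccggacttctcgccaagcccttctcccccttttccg
F3: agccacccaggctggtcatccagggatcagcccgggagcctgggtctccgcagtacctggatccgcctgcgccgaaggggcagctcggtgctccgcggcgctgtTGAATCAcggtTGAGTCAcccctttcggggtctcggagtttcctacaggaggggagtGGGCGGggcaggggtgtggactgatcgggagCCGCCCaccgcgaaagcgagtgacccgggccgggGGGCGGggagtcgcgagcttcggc
Plaur: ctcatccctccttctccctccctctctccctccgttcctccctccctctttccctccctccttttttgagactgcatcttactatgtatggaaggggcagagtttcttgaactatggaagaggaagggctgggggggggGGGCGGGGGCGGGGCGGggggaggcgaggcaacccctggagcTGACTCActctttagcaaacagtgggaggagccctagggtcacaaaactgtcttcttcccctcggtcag
Serpinb2: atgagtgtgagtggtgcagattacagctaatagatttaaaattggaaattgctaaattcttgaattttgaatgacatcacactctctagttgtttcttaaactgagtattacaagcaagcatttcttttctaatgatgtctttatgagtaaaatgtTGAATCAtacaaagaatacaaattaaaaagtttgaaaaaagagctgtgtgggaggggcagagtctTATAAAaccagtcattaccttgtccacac

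The motif of AP-1, the dimer of JUN and FOS proteins, was searched as TGANTCA, like every motif on both strands, and it was found in all 4 of these promoters. It lay 154 to 148 bases before the RefSeq start of Procr, 146 to 140 and 135 to 129 bases before that of F3, 69 to 63 before that of Plaur and 94 to 88 before that of Serpinb2. Of 27025 promoters in the table, 6.84% held this motif in a window of the same 250 bases. Procr and F3, which were higher in the RAB6A libraries, and Plaur and Serpinb2, which were lower, all carried it. The SP1/KLF motif GGGCGG, held by 33.0% of promoters, was found 3 times in F3 and 3 times in Plaur. In Plaur the EGR motif GCGNGGGCG, held by 4.67% of promoters, overlapped 2 of these SP1/KLF matches. The TATA motif TATAAA, held by 12.9% of promoters, lay 29 to 24 bases before the start of Serpinb2. The motifs of CRE (TGACGTCA, 1.61% of promoters), NF-kB (1.43%), the E-box (CACGTG, 6.02%), ISRE (3.05%), PU.1 (GAGGAAGT, 2.43%) and the MAF core (TGCTGA, 15.8%) had no match in the 6 promoters, and F7 and F10 matched none of the 10 motifs. A match describes these letters only, and the absence of a match says only that the letters are not in this window.

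**Figure D1:**
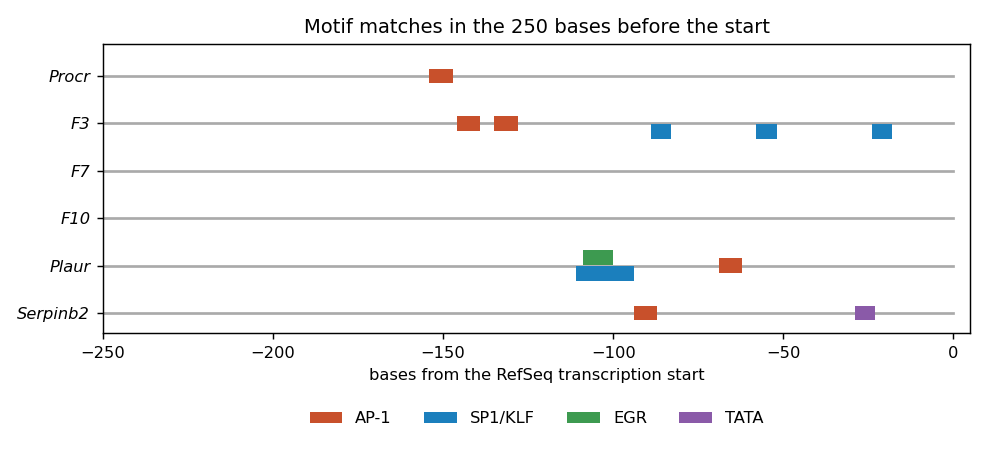
Motif matches in the 250 bases before the RefSeq transcription start of the 6 genes with an entry, on an axis of bases from the start (0), with boxes for AP-1, SP1/KLF, EGR and TATA. An AP-1 box lies 154 to 63 bases before the start in Procr, F3, Plaur and Serpinb2, and the lines of F7 and F10 have no box.

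The 9 genes covered a wide range of levels in the NC libraries. Plau was the highest, and it ranked 67 of 28137 genes by its mean FPKM. Plaur ranked 380, Procr 1309, F3 7015 and Serpinb2 10425. Each of these lay above the next without overlap between libraries, down to Thbs1 at rank 12840. The levels of Thbs1, F10, Thbd and F7 followed, and neighbors in this order overlapped. The SFRP2 group had the same order for the first 6 genes. In the RAB6A group Procr stood above Plaur, and the 4 highest genes were Plau, Procr, Plaur and F3, each apart from the next. Serpinb2 overlapped Thbs1 and Thbd there. Since these are bulk samples, fewer cells that express a gene and less RNA per cell cannot be told apart.

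**Figure D2:**
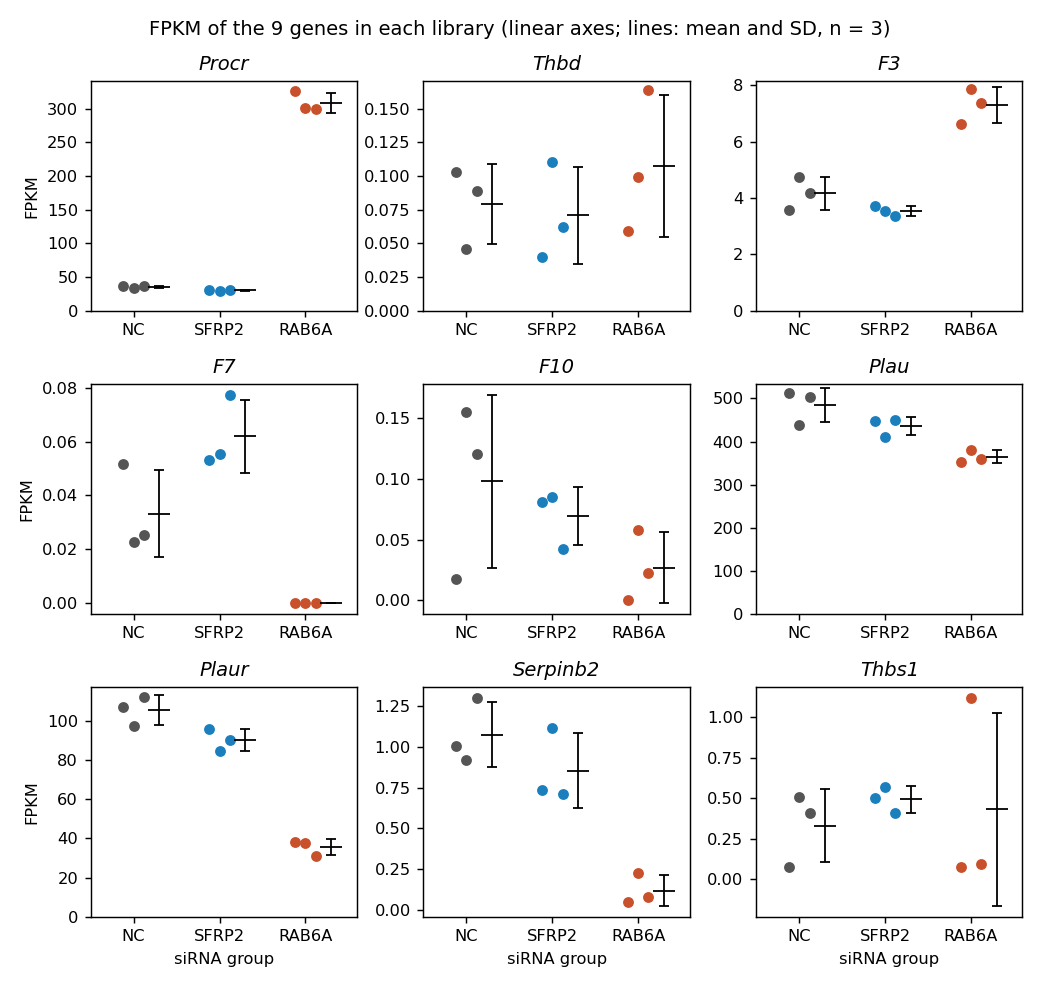
FPKM of the 9 genes in each library (points, 1 per library, linear axes of different height) with the mean and SD of each group (black lines, n = 3). The RAB6A points of Procr and F3 lie above all NC points, those of Plau, Plaur, Serpinb2 and F7 lie below them, and those of Thbd, F10 and Thbs1 overlap them.

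The comparison of the RAB6A group with NC asked how these genes stood after siRNA against RAB6A in LPS-treated cells. EPCR and tissue factor transcripts were higher, Procr 8.71-fold and F3 1.75-fold by the ratio of means. Those of the urokinase system were lower, Plaur 2.95-fold, Plau 1.33-fold and Serpinb2 9.22-fold. The value of Serpinb2 was 17.2-fold without the second RAB6A library and 5.71-fold in the fit on the log2(FPKM + 0.1) scale. Of the 9 genes, 5 averaged at least 0.5 FPKM in the 6 libraries and entered the fit across 12712 genes. In 2 of the 5 every RAB6A library was above every NC library, and in 3 every one was below. Over all genes tested, the groups did not overlap in 39.2% with RAB6A higher and in 38.2% with RAB6A lower, and limma called 74.1% at an adjusted p under 0.05, with 37.6% higher and 36.5% lower. Groups without overlap were therefore common among all genes, and nothing is read from the count for these 9, which were chosen on the same values. The median log2 fold change of the 5 was -0.41, against 0.03 over all genes tested. Nothing is read from this median either, since Serpinb2 also passed the filter only through its NC level.

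Among the anticoagulant receptors, Procr (ENSMUSG00000027611, chr2:155751117-155755471, + strand) had an FPKM of 36.2, 34.1 and 36.2 in the NC libraries. The RAB6A libraries had 326, 301 and 299. All 3 stood far above NC, with 19898 to 24082 reads against 3055 to 3262. The log2 fold change was 3.12 (standard error 0.06), and 291 of the 12712 genes (2.29%) had a larger increase. EPCR is best known from endothelium, and the 6 endothelial markers summed to an FPKM of 0.973 to 1.08 in NC and 1.09 to 1.38 in the RAB6A libraries. The highest of them in any library was 0.902, so that endothelial markers were close to 0 beside the level of Procr. Thbd (ENSMUSG00000074743, chr2:148404466-148408188, - strand), the partner of Procr in protein C activation, was near the limit of detection with 6 to 20 reads per library. Its FPKM was 0.103, 0.0456 and 0.0884 in NC and 0.0591, 0.0994 and 0.164 in the RAB6A libraries, and the groups overlapped.

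Among the procoagulant genes, F3 (ENSMUSG00000028128, chr3:121723537-121735048, + strand) had an FPKM of 3.57, 4.75 and 4.16 in the NC libraries. The RAB6A libraries had 6.64, 7.89 and 7.37. The lowest RAB6A library was above the highest NC library. The log2 fold change was 0.80 (standard error 0.12), and 22.5% of genes tested had a larger increase. F7 (ENSMUSG00000031443, chr8:13026034-13035809, + strand), the zymogen that tissue factor binds, had 4, 2 and 2 reads in the NC libraries and 0 reads in each RAB6A library. No size is given for this difference, which rests on 8 reads in all. F10 (ENSMUSG00000031444, chr8:13037308-13056676, + strand), the substrate of factor VII, had 2, 20 and 14 reads in NC and 0, 6 and 2 in RAB6A. The first NC library of F10 lay within the RAB6A range, and the groups overlapped. Of 1 to 10 reads, 70.7 to 75.3% of values per library were even, so that mates of a pair were mostly counted separately and fewer molecules stand behind these reads.

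F7 and F10 lie next to each other on chromosome 8, with 1498 bases between them on the same strand. Proz, the gene of protein Z, follows F10 after 4237 bases. It had an FPKM of 0.0424 to 0.0823 in NC and 0 to 0.00953 in the RAB6A libraries. Mcf2l lies 5128 bases before F7 and had 1.02 to 1.14 in NC and 0.735 to 0.851 in RAB6A. All 4 genes were low, and in Proz and Mcf2l every RAB6A library was below every NC library. Such separation was seen in 38.2% of all genes tested, which Proz was not, and nothing is read from these neighbors. Both coagulation factors are known as liver products, and the 6 hepatocyte markers summed to an FPKM of 0.0543 to 0.410 in NC and 0.533 to 0.620 in the RAB6A libraries. None of the 6 was at 0 in all 9 libraries, and the highest in any library was 0.365. Their part in the levels of F7 and F10 was not tested.

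In the urokinase system, Plau (ENSMUSG00000021822, chr14:20836660-20843385, + strand) had an FPKM of 512, 438 and 503 in the NC libraries. The RAB6A libraries had 352, 381 and 360.5. Every RAB6A library was below every NC library, and 31.0% of genes tested had a larger decrease than the log2 fold change of -0.41 (standard error 0.08). The size of this change moved with the scaling, to -0.88 with quantile normalization and to -0.23 after a correction for GC content and length. The receptor gene Plaur (ENSMUSG00000046223, chr7:24462484-24475968, + strand) had 107, 97.3 and 112 in NC. Its RAB6A libraries had 38.4, 37.9 and 30.9. The highest RAB6A library was well below the lowest NC library, and 5.11% of genes tested had a larger decrease than its log2 fold change of -1.56 (standard error 0.10).

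Serpinb2 (ENSMUSG00000062345, chr1:107511423-107535478, + strand) had an FPKM of 1.00, 0.921 and 1.30 in the NC libraries. The RAB6A libraries had 0.0469, 0.225 and 0.0780. These values rest on 98, 102 and 130 reads in NC against 4, 20 and 6 in RAB6A, and the groups did not overlap. The gene passed the filter through the NC group, and its fold change is on the log2(FPKM + 0.1) scale, which understates the change of low genes. It was -2.51 (standard error 0.38), and it ranged from -3.38 with voom on the recovered reads to -0.89 with a pseudocount of 1. Serpinb10 overlaps Serpinb2 on the same strand and had an FPKM of at most 0.0315. How reads in sequence shared by these genes were counted is not stated. On either side lie other clade B serpins. Serpinb7 had 0.108 to 0.233 in NC and 0 to 0.0135 in RAB6A, and Serpinb8 had 0.829 to 1.11 and 0.210 to 0.321. In Serpinb7 and Serpinb8, as in Serpinb2, every RAB6A library was below every NC library, while Serpinb10 overlapped. Such separation was seen in 38.2% of all genes tested, which Serpinb7 was not, and nothing is read from these neighbors.

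Thbs1 (ENSMUSG00000040152, chr2:118111876-118127133, + strand) varied more within a group than between groups. Its FPKM was 0.0791, 0.506 and 0.407 in NC and 0.0770, 1.12 and 0.0955 in RAB6A, with 17 to 257 reads per library. A single RAB6A library was high and a single NC library was low, and the groups overlapped. The antisense lincRNA Gm29233 overlaps Thbs1 in GENCODE, and reads of the 2 cannot be told apart unless strand was counted, which is not stated.

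The comparison of the SFRP2 group with NC addressed the study's own question, the effect of SFRP2 siRNA on inflammatory macrophages. It used the same 3 NC libraries as the RAB6A comparison, so the values of both share their controls. The 5 genes with enough expression all averaged lower in the SFRP2 group, and the groups did not overlap in 2 of them, Procr and Plaur. All 5 differences were small, between 1.11-fold and 1.26-fold by the ratio of means. Over the 12017 genes tested, 13.9% had SFRP2 libraries that were all below NC and 10.9% had them all above. No gene was called with limma at an adjusted p under 0.05 (0.0%), while 18.5% had an unadjusted p under 0.05. Voom on the recovered reads called 7 genes higher and 34 lower. The study itself reported genes up and down after SFRP2 siRNA in these cells, and its methods name DESeq2. The fit here used FPKM and another test, so the lack of calls is not set against that result. The median log2 fold change of the 5 was -0.22, against -0.01 over all genes tested. Since the 5 were chosen with these values known, nothing is read from it.

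Procr had an FPKM of 30.0, 29.7 and 30.9 in the libraries labeled SFRP2 siRNA, each below the lowest NC library at 34.1. Its log2 fold change was -0.23 (standard error 0.05). Plaur had 96.0, 84.5 and 90.0 there, and the highest of these stood just under the lowest NC library at 97.3. Its log2 fold change was -0.22 (standard error 0.07). Both differences were larger than the SD of either group and far smaller than those of the RAB6A group. They were not particular to these genes. Of the 8 macrophage markers, 4 also had every SFRP2 library below NC, with log2 fold changes from -0.23 for Adgre1 to -0.15 for Cd14, and 4 overlapped.

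F3 had an FPKM of 3.71, 3.52 and 3.36 in the SFRP2 group, of which the first lay above the lowest NC library. Its log2 fold change of -0.22 (standard error 0.11) was -0.12 without the second NC library. Plau had 447, 411 and 450.2, within reach of the lowest NC library at 438. Its log2 fold change of -0.15 (standard error 0.07) was -0.02 with quantile normalization. Serpinb2 had 0.735, 1.12 and 0.711, and its log2 fold change was -0.31 (standard error 0.22). It was -0.50 without the second SFRP2 library and -0.18 without the third NC library. The groups of F3, Plau and Serpinb2 overlapped.

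The other 4 genes were under the filter in this comparison too. Thbd had an FPKM of 0.0397, 0.111 and 0.0618 in the SFRP2 group, and F10 had 0.0812, 0.0848 and 0.0422, and both overlapped NC. Thbs1 had 0.503, 0.572 and 0.408, a narrower spread than in the other groups, and overlapped NC. F7 had 4, 4 and 5 reads against 4, 2 and 2 in NC. Its 3 FPKM values of 0.0530, 0.0553 and 0.0774 stood above NC, but no difference can be read from so few reads.

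**Figure D3:**
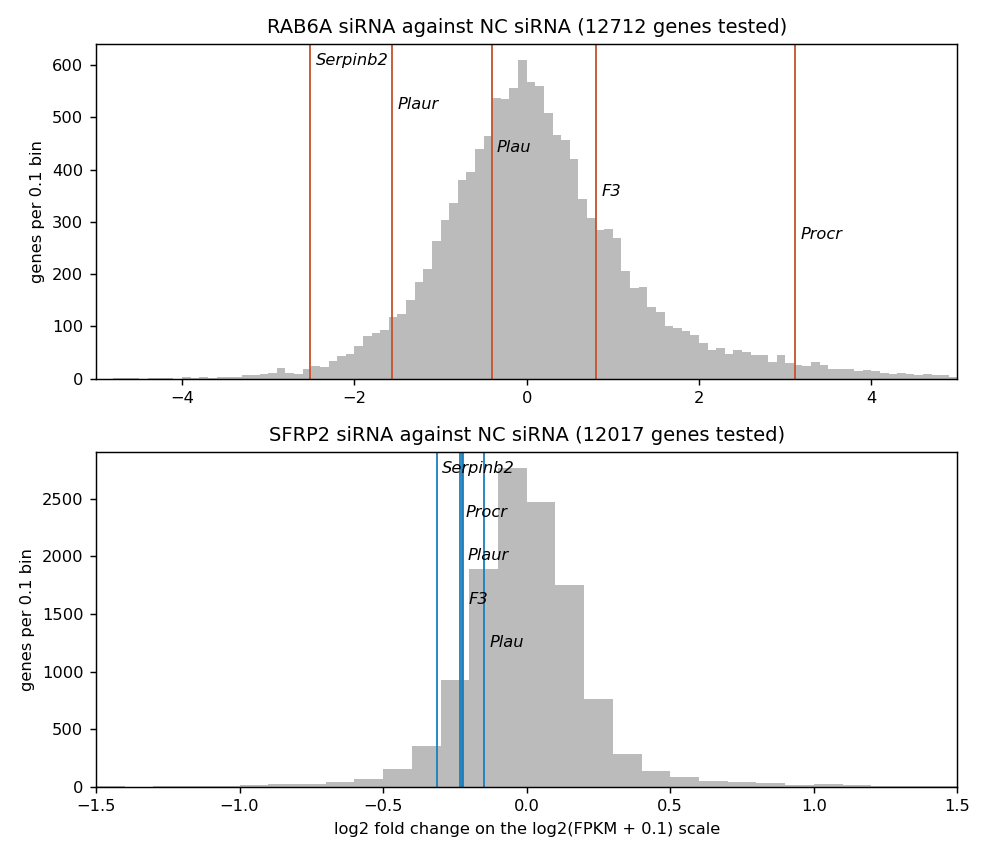
Number of genes per bin of 0.1 in log2 fold change, on the log2(FPKM + 0.1) scale, for RAB6A siRNA (top, 12712 genes tested) and SFRP2 siRNA (bottom, 12017) against NC, with lines at the 5 genes tested and genes beyond the ends of the axes not drawn. The RAB6A lines run from -2.51 for Serpinb2 to 3.12 for Procr, and the SFRP2 lines lie between -0.31 and -0.15.

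A ratio of FPKM within a library is free of any factor common to all genes of that library. Quantile normalization is not such a factor, and with it the log2 fold changes of Plau and Plaur in the RAB6A group were -0.88 and -1.49, against -0.41 and -1.56 without it. Plau over Plaur, the enzyme over its receptor, was 4.59 ± 0.168 in NC, 4.84 ± 0.177 in the SFRP2 group and 10.3 ± 1.26 in the RAB6A group (SD, n = 3 each). The RAB6A libraries, at 9.17, 10.0 and 11.7, were all above those of the other groups. Procr over F3 was 8.67 ± 1.48 in NC, 8.57 ± 0.567 in the SFRP2 group and 42.6 ± 5.74 in the RAB6A group. Tfpi encodes the inhibitor of the tissue factor complex, and Tfpi over F3 was 1.27 ± 0.183, 1.59 ± 0.0378 and 0.621 ± 0.0867. The ratio was above 1 in all NC and SFRP2 libraries and below 1 in all RAB6A libraries.

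**Figure D4:**
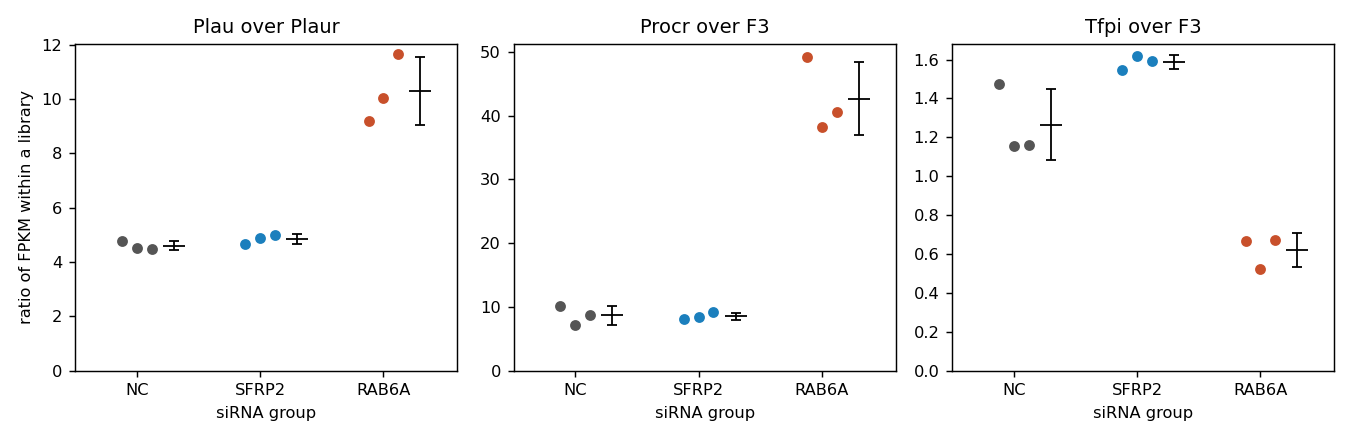
Ratio of FPKM within each library (points) for Plau over Plaur, Procr over F3 and Tfpi over F3, with the mean and SD of each group (black lines, n = 3, linear axes from 0). In each panel the 3 RAB6A points lie apart from the 6 points of the other groups.

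Other genes of these pathways were taken from 7 lists of 86 genes, which do not hold the 9 genes and were written with earlier results of these data known. Of the 86, 82 are listed in the values (not Serpina5, Serpina10, Plg and Serpinb13), and 43 passed the filter in the RAB6A comparison. Of these 43, 17 rose, 15 fell and 11 were not called with limma, so 32 were called in all, where the share over all genes tested was 74.1%. Their median log2 fold change was 0.09. The counts per list that follow stand beside shares over all genes tested of 37.6% higher and 36.5% lower, and nothing is read from them. The calls of 28 of the 32 held under each alternative fit that gave a value, and 4 were lost in some, those of S100a10, Klf4, Lrp1 and Calr (Calr was named after its values were seen).

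Around the plasminogen activator, 3 of 7 tested genes of the plasminogen system rose and 2 fell. Of the plasminogen receptors, Plgrkt rose by 1.12 and Anxa2 by 0.93 on the log2 scale (adjusted p = 1.5e-05 and 2.5e-05 from limma). S100a10, the partner of Anxa2, rose by 0.17 (adjusted p = 0.0339), a call lost in 10 of 17 alternatives, among them those without any single NC library or without the first or second RAB6A library. Quantile normalization turned it to -0.06. A2m, a broad protease inhibitor, fell from 1.69 ± 0.172 to 0.0121 ± 0.00416 (adjusted p = 1.6e-05), and it passed the filter only through NC. Lrp1, the endocytic receptor of inhibited urokinase, fell by 0.22 (adjusted p = 0.0154), and this call was lost with quantile normalization and without the first or the third NC library. Plat, the gene of tissue plasminogen activator, was under the filter.

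Among 6 tested coagulation factors and cofactors 2 rose and 3 fell. Ggcx, the carboxylase that vitamin K-dependent factors need, rose by 1.61, and Vkorc1l1 of the vitamin K cycle rose by 0.66 on the log2 scale (adjusted p = 4.7e-06 and 3.2e-04 from limma). F9, the gene of factor IX, fell from 1.68 ± 0.229 to 0.428 ± 0.130 FPKM (SD, n = 3 each; adjusted p = 2.4e-04). It passed the filter only through NC. Lman1, a cargo receptor for factors V and VIII, fell by 0.51 and the scramblase gene Ano6 by 0.45 (adjusted p = 1.2e-04 and 6.4e-04). Of 3 tested anticoagulants, Pros1, the cofactor of activated protein C, rose by 0.91 (adjusted p = 1.8e-04). Anxa5, which covers phosphatidylserine, fell by 0.97 (adjusted p = 1.0e-05). Tfpi was not called, with a log2 fold change of -0.20 (adjusted p = 0.0775). None of the 4 protease-activated receptors, which thrombin and other proteases cleave, passed the filter.

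Of 11 tested partners of uPAR and thrombospondin 1, 2 rose and 5 fell. The formyl peptide receptor genes Fpr2 and Fpr1 had the lowest log2 fold changes, -3.12 and -2.82 (adjusted p = 3.7e-05 and 5.2e-04 from limma). The integrin genes Itga5 and Itgb1 fell by 0.75 and 0.53 (adjusted p = 4.9e-05 and 9.7e-05), while Itgb2 rose by 0.52 and Cd47 by 0.28 (adjusted p = 1.3e-04 and 0.0116). Of 6 tested clade B serpins, 4 rose and 1 fell, the direction of Serpinb2. Serpinb1a rose by 2.04, Serpinb6b by 2.02, Serpinb9 by 0.63 and Serpinb6a by 0.27, and Serpinb8 fell by 1.48 (adjusted p = 0.0013, 1.1e-06, 7.7e-04, 0.0070 and 0.0011 from limma). Serpinb1a passed the filter through the RAB6A group, and A2m, Fpr1, Fpr2, F9 and Serpinb8 passed it through NC.

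All 10 transcription factors known to act at genes of this system were tested, and 5 rose and 3 fell. The AP-1 genes differed in direction. Jun rose from 25.2 ± 1.30 to 56.1 ± 2.63 FPKM and Fos fell from 15.9 ± 0.759 to 7.22 ± 0.328 (SD, n = 3 each; adjusted p = 4.4e-06 and 5.4e-06 from limma), while Fosl1 was not called (log2 fold change -0.07, adjusted p = 0.656). Egr1 rose by 1.05, Klf4 by 0.85 and Sp1 by 0.63 on the log2 scale (adjusted p = 0.0028, 0.0029 and 5.1e-05), and the call of Klf4 was lost with quantile normalization. Ets2 fell by 1.33 and Rela by 0.32 (adjusted p = 2.8e-06 and 0.0014). No relation between these genes and the motif matches was tested.

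**Figure D5:**
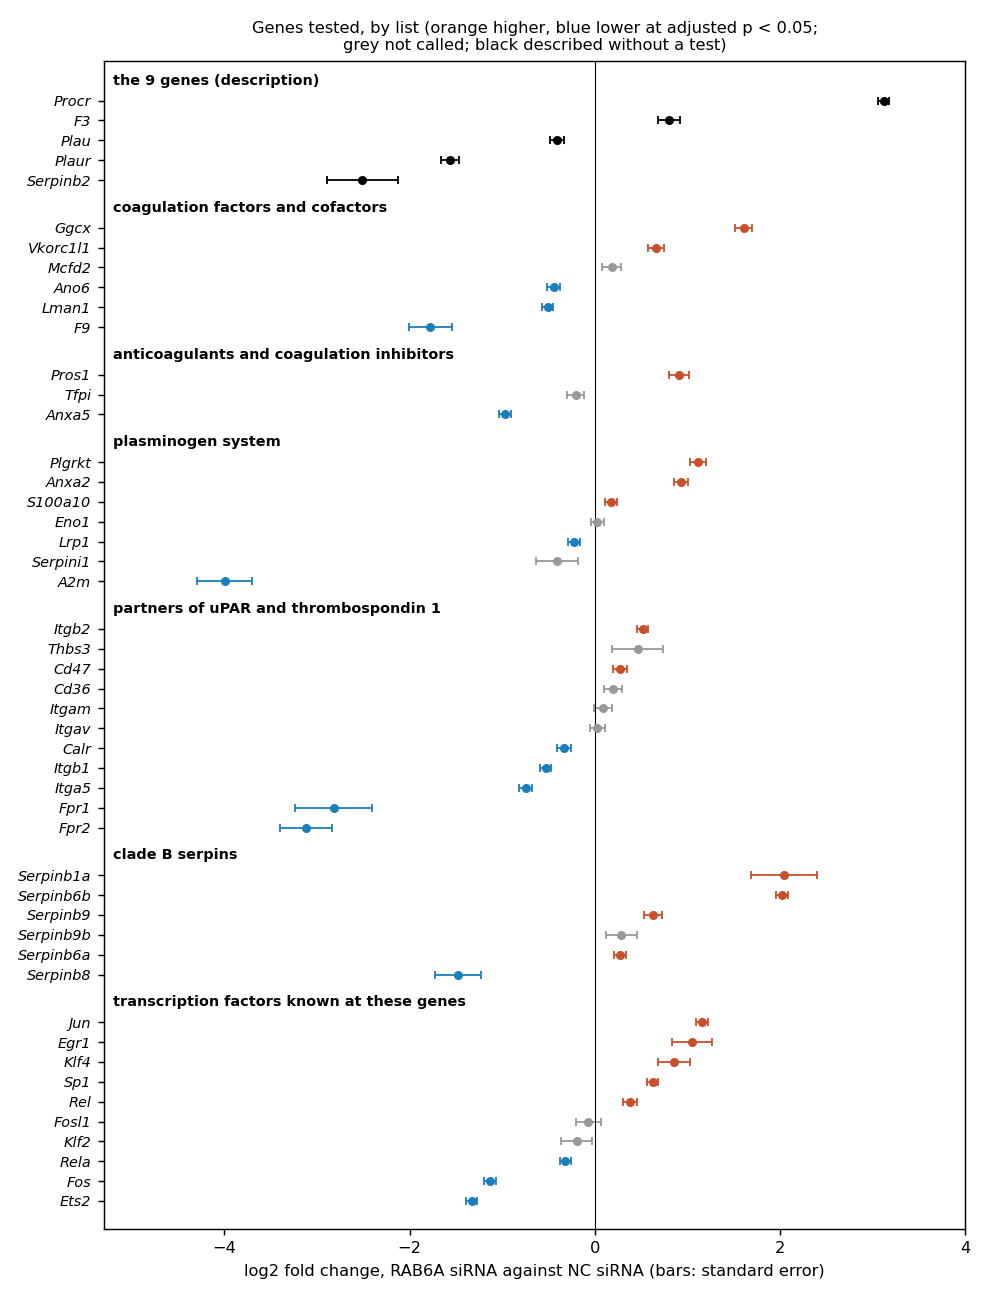
Log2 fold change of RAB6A siRNA against NC, with standard error bars, for the 5 genes described without a test (black) and the 43 tested genes of the lists (orange higher, blue lower, grey not called). Procr lies farthest to the right at 3.12, and A2m farthest to the left at -3.99.

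In the SFRP2 comparison 41 of the list genes passed the filter, and 0 were called with limma. Of these 41, 10 had an unadjusted p under 0.05 from limma (3 higher and 7 lower), where the share over all genes tested was 18.5%. Nothing is read from this count, since the lists were written with earlier results known. With voom on the recovered reads 2 were called. The smallest unadjusted p-values were those of Itgb2 and Anxa5, with log2 fold changes of -0.28 and -0.31 (adjusted p = 0.163 for both from limma). With voom their adjusted p was 0.0433 and 0.0374. Of the plasminogen system, Anxa2 and Lrp1 had log2 fold changes of -0.22 and -0.21 (adjusted p = 0.178 and 0.199 from limma). Ggcx had 0.26 and Rel 0.16 (adjusted p = 0.210 and 0.178).

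Among 12549 genes that averaged at least 0.5 FPKM in the 9 libraries, the genes whose centered log2 pattern was closest to each of the 5 were looked up, with the root mean square difference as the measure. Closest to Procr were Usp35 (0.0941) and Ankrd61 (0.154). Closest to F3 were Carhsp1 (0.0896) and Rpl36a (0.0988). Plau was followed most closely by Rps6ka1 (0.0428) and Pkm (0.0499), and Plaur by Nrros (0.0676) and Lfng (0.0837). Serpinb2 had no pattern as close, with Ifrd2 (0.254) and Exo5 (0.274) as the nearest. No gene of the 9 was among the nearest of another.

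The highest FPKM of any endothelial, hepatocyte, megakaryocyte, fibroblast or neutrophil marker in any library was 1.32. Of the 25 listed markers of these cells, 7 had every RAB6A library above NC (Pecam1, Vwf, Ttr, Pf4, Itga2b, Gp9 and Dcn), 1 had every one below (Cdh5) and 17 overlapped. These were named after their values were seen. Over all genes tested, which most of these markers were not, the shares were 39.2% above and 38.2% below, and nothing is read from the count. Pf4 had 0 to 0.0652 in NC and 0.0733 to 0.169 in RAB6A. Values this low rest on few reads, and a given number of reads has a higher FPKM at lower depth. No difference is read from Pf4. Pecam1 averaged 0.475 in NC and 0.830 in RAB6A and rose by 0.69 on the log2 scale (adjusted p = 0.0124 from limma), a call lost with quantile normalization. Dcn, a fibroblast marker, averaged 0.348 and 0.701 and rose by 0.81 (adjusted p = 0.0449 from limma). This call was lost in 8 of 14 alternatives that gave a value, among them those without any single NC library. Pecam1 and Dcn passed the filter of 0.5 FPKM only through the RAB6A group, which limits what their p-values say. Itga2b, a platelet integrin gene under the filter, averaged 0.0652 in NC and 0.456 in RAB6A. Summed markers of megakaryocytes and platelets, a known source of Thbs1, were 0.472 to 0.597 in NC, 0.517 to 0.770 in the SFRP2 group and 0.865 to 1.23 in the RAB6A group. Those of fibroblasts were 1.17 to 2.55, 1.54 to 2.42 and 1.57 to 2.41, and those of neutrophils were 0.0205 to 0.407, 0.126 to 0.196 and 0.0708 to 0.223. Summed macrophage markers were 4516 to 4982, 3998 to 4323 and 3945 to 4097. No listed marker was at 0 in all 9 libraries. The part of these levels in the differences of the 9 genes was not tested.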

How the data were processed

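RNA-seq of 9 RAW264.7 libraries was used, in 3 groups of 3 set by the labels. The authors deposited FPKM per Ensembl gene and library. HISAT2, featureCounts and Subread are named in the submitters' processing notes, without versions, and the build and annotation are not given in the sources used here. Of 28137 identifiers, 27533 were named from GENCODE M21. The 9 genes, the pathway lists, the markers and the motifs were chosen with earlier results of these data known. A planned list gene is not reported here and was left out of the lists and counts. Genes of the lists were named when among the 4 highest or 4 lowest log2 fold changes called per list and comparison, or, with none called, among the 2 of smallest unadjusted p in either direction.

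Reads were recovered from the FPKM steps, and 27084 genes (98.4% of those named) were whole within 0.03 of a read (or 1e-06 of the count) in all 9 libraries. The methods of the study name DESeq2, but the values are not counts, so log2(FPKM + 0.1) was fitted with limma 3.58.1 in R 4.3.3 (eBayes with a trend) for genes that averaged at least 0.5 FPKM in the 6 libraries compared. P-values were adjusted by the Benjamini-Hochberg method. The fit and the recovery were tested on simulated data. Python 3.11.15 was used otherwise. Alternatives were pseudocounts of 1 and 0.01, no filter, a filter at 1 FPKM, quantile normalization and median-of-ratios scaling. Others were a replicate block, eBayes without a trend, a single fit of all 9 libraries, voom, and each library left out. A spline correction (5 degrees of freedom) was also used, for GC content of the longest GENCODE transcript and for the length of all exons of a gene merged.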

Additional observations from a re-analysis of the deposited data

How the results depend on the processing

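No log2 fold change of the 5 tested genes changed sign under any alternative that gave a value, and Thbd, F7, F10 and Thbs1 were not fitted. In the RAB6A comparison Procr ranged from 3.00 to 3.19, F3 from 0.69 to 1.02, Plau from -0.88 to -0.23, Plaur from -1.62 to -1.42 and Serpinb2 from -3.38 to -0.89. Serpinb2 had no value under a filter at 1 FPKM. It had none without the third NC library either, where it no longer passed the main filter. Genes called higher and lower numbered 4777 and 4641, against 4475 and 4869 with quantile normalization and 5185 and 4221 after the correction for GC content and length. Leaving out a library gave 4382 to 4643 higher and 4265 to 4624 lower, and 15 to 18 higher and 13 to 16 lower in the pathway lists. In the SFRP2 comparison 0 genes were called, but voom called 7 higher and 34 lower, with 2 lower in the lists, and leaving out a library gave 0 to 1 higher (1 without the first NC library) and 0 lower. The cause was not tested. Deviations from the group means correlated at -0.0847 to 0.0477 between libraries of the same number and at -0.116 to 0.0815 between others, so the numbers were not shown to pair them. With the replicate block 4649 genes were higher and 4454 lower in RAB6A, and 0 were called in SFRP2. Thbd, F7 and F10 rest on at most 20 reads per library, which limits what can be said of them.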

Other observations

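Some list genes were under the filter and had RAB6A libraries that did not overlap NC. They were picked after their values were seen and carry no test. Mrc2, the gene of a collagen receptor that associates with uPAR, had an FPKM of 0.0540, 0.0508 and 0.0352 in NC and 0.280, 0.388 and 0.256 in the RAB6A libraries. Thbs2, a homolog of Thbs1, had 0.0892, 0.0787 and 0.0806 in NC and 0.236, 0.476 and 0.340 in RAB6A. Plat had 0.0231, 0.0136 and 0.0377 in NC and 0.123, 0.119 and 0.0489 in RAB6A. Serpinb12 had 0.212, 0.136 and 0.320 in NC and was listed at 0 in each RAB6A library. Vwf, F2rl1, Serpine2 and Serpinf2 also had all RAB6A libraries above NC, and F13b, Proz, F2rl2 and Serpinb7 had them below. F2rl1 had 0, 0.0155 and 0.0172 in NC and 0.0201, 0.0386 and 0.0223 in RAB6A. At such levels a value rests on few reads. The same number of reads gives a higher FPKM at the lower depth of the RAB6A libraries, so no difference is read from F2rl1. How common such separation is among all genes under the filter was not counted.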
